A study of Rattus norvegicus with 11 samples.

Results

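The tachykinin family was examined in rat adrenal tissue: the precursor genes Tac1 and Tac3 and the receptor genes Tacr1, Tacr2 and Tacr3. These 5 genes, of 14506 with a name on the array, were taken by symbol from the platform annotation. Where a gene had several probe sets, the one with the top mean level across the 11 arrays was to be chosen by that level, but each gene had 1, so no measured value decided the choice. One-colour Affymetrix arrays measured 7 adrenal lesions of rats heterozygous for a mutation of the cell cycle inhibitor gene Cdkn1b (p27Kip1, spelled Cdknb1 in the labels) and 4 normal adrenal glands of wild-type rats. Every animal was of the mixed background Sprague–Dawley white eye/Wistar–Kyoto, housed free of specific pathogens and untreated. Lesion replicate 1 was a female of 23 months, lesion replicates 2 and 3 were males of 21 months, lesion replicates 4 and 5 females of 13 months and lesion replicates 6 and 7 males of 13 months. Normal replicates 1 and 2 were a female and a male of 24 months, and normal replicates 3 and 4 a female and a male of 12 months. Each array is labelled as a biological replicate, taken here as a separate animal.

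Tachykinins are short neuropeptides cut from larger precursors and amidated at a shared carboxy-terminal end. Tac1 encodes substance P and neurokinin A, and Tac3 encodes neurokinin B, best known from hypothalamic neurons that drive pulses of gonadotropin-releasing hormone. Their receptors couple mainly through Gq proteins to phospholipase C and calcium release, with Tacr1 preferring substance P, Tacr2 neurokinin A and Tacr3 neurokinin B. In the adrenal gland, substance P is known from nerve fibres and from its action on nicotinic responses of chromaffin cells.

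Values are log2 expression per probe set, normalized across arrays by the authors. Levels of one probe set can be compared between arrays, but not levels of different probe sets with each other. Medians of the arrays lay between 4.91 and 5.01. The tissue label held by its defining genes in both groups. The chromaffin genes Th, Dbh and Chga lay between 11.2 and 12.6 on every array, and the cortical genes Star, Cyp11a1 and Cyp11b1 between 9.72 and 12.6. Lesion replicate 1 stood apart, with a median correlation of 0.971 with the other arrays across probe sets, against 0.980 to 0.987 for the rest. In that array 6 of 7 measured cortical markers lay below every normal gland, and differences that rest on it are also given without it. The share of all probe sets below every normal gland on that array was not counted. In tissue of mixed cells, fewer cells of a type and less RNA per cell cannot be told apart.

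Tac3, the neurokinin B precursor, was at a low level on 9 arrays and very high in 2 lesions. It stood at 12.23 in lesion replicate 1 and at 9.61 in lesion replicate 3. The remaining lesions, replicates 2, 4, 5, 6 and 7, gave 4.16, 4.64, 4.42, 4.13 and 4.05. Normal replicates 1 to 4 gave 4.24, 4.09, 4.30 and 4.14. The 2 high arrays were a female of 23 months and a male of 21 months, and the other male lesion of 21 months, replicate 2, was at the level of the normal glands. The 4 lesions of 13 months spanned 4.05 to 4.64, a range that held the whole range of the normal glands.

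**Figure D1:**
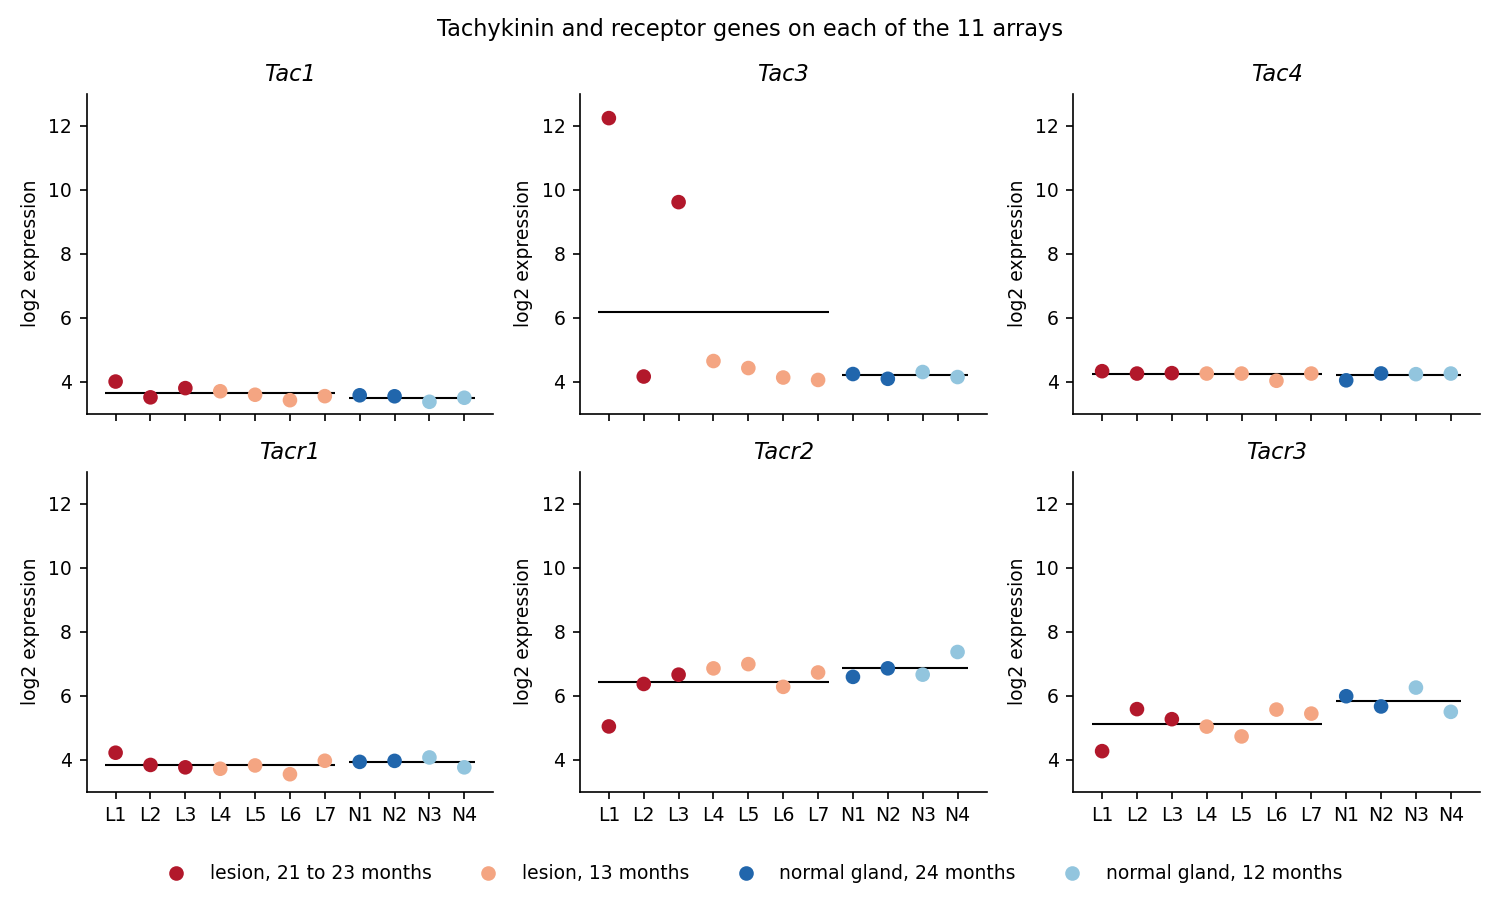
Log2 expression (vertical axis, the same for all panels) of the 2 tachykinin precursor genes, the further ligand gene Tac4 and the 3 receptor genes on each array (L, lesion; N, normal gland; numbers are replicates). Points are single arrays coloured by group and age, and the horizontal lines are the means of the 7 lesions and the 4 normal glands. Tac3 stands at 12.23 and 9.61 in lesion replicates 1 and 3 and near 4 elsewhere.

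The excess of Tac3 over the highest normal gland was 7.93 in lesion replicate 1 and 5.31 in lesion replicate 3, on the log2 scale. In each of these 2 arrays it was the largest such excess of all 29214 probe sets. As the family was proposed with earlier results of these data known, this rank is a description only. The next largest excess was 5.52 in lesion replicate 1 and 3.29 in lesion replicate 3. An excess of at least 5 was met by 4 probe sets in lesion replicate 1 (0.0137%), by Tac3 alone in lesion replicate 3 (0.00342%) and by none in the other 5 lesions. As a scale for the same probe set between arrays only, Tac3 ranked 71 of 29214 probe sets in lesion replicate 1 and 1541 in lesion replicate 3. On the other 9 arrays it lay between the 34.4th and the 44.8th percentile.

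Some marker means of other cells also stood apart on these 2 arrays, more of them in lesion replicate 1 than in lesion replicate 3. The 4 measured of 6 T, NK and B cell markers (Cd3e, Cd3g, Cd8a and Nkg7) had a mean of 6.44 in lesion replicate 1 and 5.99 in lesion replicate 3. Their mean was 4.17 to 4.85 in the other lesions and 4.52 to 5.11 in the normal glands. All 4 lay above every normal gland in lesion replicate 1, and 2 of the 4 in lesion replicate 3. These were Nkg7, a granule protein gene of cytotoxic lymphocytes, at 9.51 in lesion replicate 3 and 8.74 in lesion replicate 1, and the T cell co-receptor gene Cd8a, at 6.90 and 6.58. Normal glands reached 7.29 for Nkg7 and 5.34 for Cd8a. The T cell receptor complex gene Cd3g went the other way in lesion replicate 3, at 3.68 below the lowest normal gland at 3.74, and stood at 5.78 in lesion replicate 1. The mean of the smooth muscle and pericyte markers was 7.54 in lesion replicate 1 and 7.03 in lesion replicate 3, against 6.70 to 6.99 in the other lesions and 6.69 to 7.22 in the normal glands. Only 2 of these 6 markers lay above every normal gland in lesion replicate 1. The exact share of all probe sets above every normal gland was not counted for single arrays, so these marker counts lack a reference. At least 3814 of 29214 probe sets lay above in lesion replicate 1, and at least 2247 in lesion replicate 3. The cortical marker mean was 9.69 in lesion replicate 1, the lowest of all arrays. It was 11.18 in lesion replicate 3, within the range of the other lesions (10.98 to 11.44) and above the normal glands (10.54 to 11.03). The chromaffin marker mean was 11.62 and 11.35 in these arrays, 10.74 to 11.57 in the other lesions and 11.10 to 11.54 in the normal glands. The part of these cells in the level of Tac3 was not tested.

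With 2 of the 7 lesions high, the lesion mean lay between these and the other 5 and close to no single lesion. The mean of Tac3 was 6.18 ± 3.33 (SD) over the 7 lesions, and 4.19 ± 0.09 (SD) over the 4 normal glands. The difference of 1.99 was not called by limma (95% CI -1.26 to 5.23, adjusted p = 0.820), whereas 19 of 29214 probe sets were called (0.065%), all lower, and 7.71% had an unadjusted p under 0.05. It was 0.98 without lesion replicate 1, 4.50 among arrays of 21 to 24 months and 0.09 among arrays of 12 to 13 months, none called. Since earlier results of these data were known when the family was proposed, the tests and ranks of its members are given as a description. The p-values set each difference against a spread between arrays that is shared by the groups. For Tac3 the groups themselves spread very unlike, with SDs of 3.33 and 0.09.

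By age, Tac3 averaged higher in the 3 lesions of 21 to 23 months than in the 4 of 13 months by 4.35 (SE 1.41, 95% CI 1.21 to 7.50), the largest older-minus-younger difference of all probe sets. It was not called (limma adjusted p = 0.405), in a comparison where 3 probe sets were (0.0103%), 2 of them higher (0.00685%), and 9.6% had an unadjusted p under 0.05. The result turned on single arrays. Without lesion replicate 2, the older lesion at the normal level, the difference was 6.61 and called (adjusted p = 0.00579), and without lesion replicate 1 it was 2.57 (adjusted p = 0.760). Over all alternatives the adjusted p ran from 0.00579 to 0.760. Cell markers also differed between older and younger lesions. All 7 cortical markers had lower means in older lesions (median -0.66, and -0.22 without lesion replicate 1), with 0 called by limma. An unadjusted p under 0.05 was found for 3 of them, or for 2 without lesion replicate 1, where 6.5% of all probe sets had one. Of the 7 pituitary markers, 1 was called lower, the prolactin gene Prl (-3.69, limma adjusted p = 0.0180), and 0 were called without lesion replicate 1. An unadjusted p under 0.05 was found for 4 of the 7 with and without that array. Of 6 measured chromaffin markers, 5 had higher means in older lesions (median 0.35, and 0.37 without lesion replicate 1). By limma 0 of them were called, and 3 had an unadjusted p under 0.05, or 0 without lesion replicate 1. The 4 T, NK and B cell markers had a median difference of 0.85, and 0.36 without lesion replicate 1. By limma 0 of them were called, and 2 had an unadjusted p under 0.05, or 0 without lesion replicate 1. Their part in the age difference of Tac3 was not tested. In normal glands the same age difference was -0.06 (95% CI -4.17 to 4.05), with 0 probe sets called by limma and 2.87% at an unadjusted p under 0.05. That interval rests on a spread shared with the lesions, whereas the normal glands themselves spanned only 4.09 to 4.30. The difference between the lesion and the normal age effects was 4.41 (95% CI -0.76 to 9.59, limma adjusted p = 0.9996), where 0 were called and 2.83% had an unadjusted p under 0.05. The male-minus-female difference was -1.08 (95% CI -4.31 to 2.16, limma adjusted p = 0.999) and changed sign, to 0.48, without lesion replicate 1. By sex 0 probe sets were called by limma, and 3.95% had an unadjusted p under 0.05.

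Tac1, the precursor of substance P and neurokinin A, was low on every array. Lesion replicates 1 to 7 gave 4.00, 3.51, 3.80, 3.70, 3.59, 3.42 and 3.54, and normal replicates 1 to 4 gave 3.57, 3.54, 3.37 and 3.49. The highest 2 values were those of lesion replicates 1 and 3, the arrays with high Tac3, but Tac1 stayed between the 18.7th and the 34.9th percentile of each array. The lesion-minus-normal difference was 0.16 (95% CI -0.08 to 0.39, limma adjusted p = 0.807), and 0.10 without lesion replicate 1.

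Tac4, the precursor of hemokinin and no member of the 5, was also low. It spanned 4.03 to 4.32 in lesions and 4.04 to 4.25 in normal glands, with a difference of 0.04 (95% CI -0.13 to 0.21, limma adjusted p = 0.955). Neither Tac1 nor Tac4 had a step between arrays like that of Tac3.

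Tacr3, the receptor that prefers neurokinin B, had its lowest value in lesion replicate 1, where Tac3 was highest. In lesion replicate 3, the other array with high Tac3, it stood at 5.27, the median of the lesions. Lesion replicate 1 was also the lowest array for Tacr2 and for the cortical marker mean, whose part in the level of Tacr3 was not tested. Lesion replicates 1 to 7 gave 4.27, 5.58, 5.27, 5.03, 4.73, 5.57 and 5.44. Normal replicates 1 to 4 gave 5.98, 5.66, 6.25 and 5.49. Lesion replicates 2 and 6 overlapped the lowest normal gland, and the other 5 lesions lay below all normal glands. The mean was 5.12 ± 0.49 (SD) over the 7 lesions, and 5.85 ± 0.34 (SD) over the 4 normal glands. The difference of -0.72 (SE 0.25, 95% CI -1.26 to -0.18) was not called by limma (adjusted p = 0.465). It kept its sign under all 22 alternatives, at -0.84 to -0.58, and was called under none.

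Tacr3 also divided by sex, in opposite directions in the groups. The 3 female lesions gave 4.27 to 5.03 and the 4 male lesions 5.27 to 5.58, without overlap, an order held by 3.23% of all probe sets. In normal glands the 2 females stood at 5.98 and 6.25, above the 2 males at 5.66 and 5.49. The sexes lay apart in opposite directions, either way round, in 493 of 29214 probe sets (1.69%). The male-minus-female difference was 0.79 in lesions (95% CI 0.40 to 1.17, limma adjusted p = 0.351), where 6.34% of probe sets had an unadjusted p under 0.05 and 1 was called. It was -0.54 in normal glands (95% CI -1.05 to -0.03, limma adjusted p = 1), where 0 were called and 4.45% had an unadjusted p under 0.05. The difference between them was 1.33 (SE 0.29, 95% CI 0.69 to 1.96) and not called by limma (adjusted p = 0.424), with 0 probe sets called and 6.6% at an unadjusted p under 0.05. That model of group by sex was chosen after the values were seen, and its alternatives gave 1.12 to 1.51 with adjusted p from 0.111 to 1. The age difference in lesions was -0.15 (95% CI -0.88 to 0.57, adjusted p = 0.915), and 0.23 without lesion replicate 1.

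Tacr2, the receptor that prefers neurokinin A, overlapped between the groups, with 1 lesion far below the others. Lesion replicates 1 to 7 gave 5.04, 6.37, 6.66, 6.85, 6.99, 6.28 and 6.72, and normal replicates 1 to 4 gave 6.59, 6.85, 6.66 and 7.36. Lesion replicate 1 was the lowest of all arrays, and it was also the lowest for the cortical marker mean, whose part in the level of Tacr2 was not tested. The lesion-minus-normal difference was -0.45 (95% CI -1.14 to 0.24, limma adjusted p = 0.811), or -0.22 (95% CI -0.61 to 0.17) without lesion replicate 1. Between older and younger lesions it was -0.69 (95% CI -1.48 to 0.10, adjusted p = 0.573), or -0.20 without that array.

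Tacr1, the substance P receptor, was low throughout. Lesion replicates 1 to 7 gave 4.22, 3.84, 3.76, 3.72, 3.82, 3.55 and 3.97, and normal replicates 1 to 4 gave 3.93, 3.96, 4.07 and 3.76. The groups overlapped, with a difference of -0.09 (95% CI -0.35 to 0.16, limma adjusted p = 0.914). Older lesions exceeded younger ones by 0.18 (95% CI -0.15 to 0.50, adjusted p = 0.736), or by 0.04 without lesion replicate 1.

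**Figure D2:**
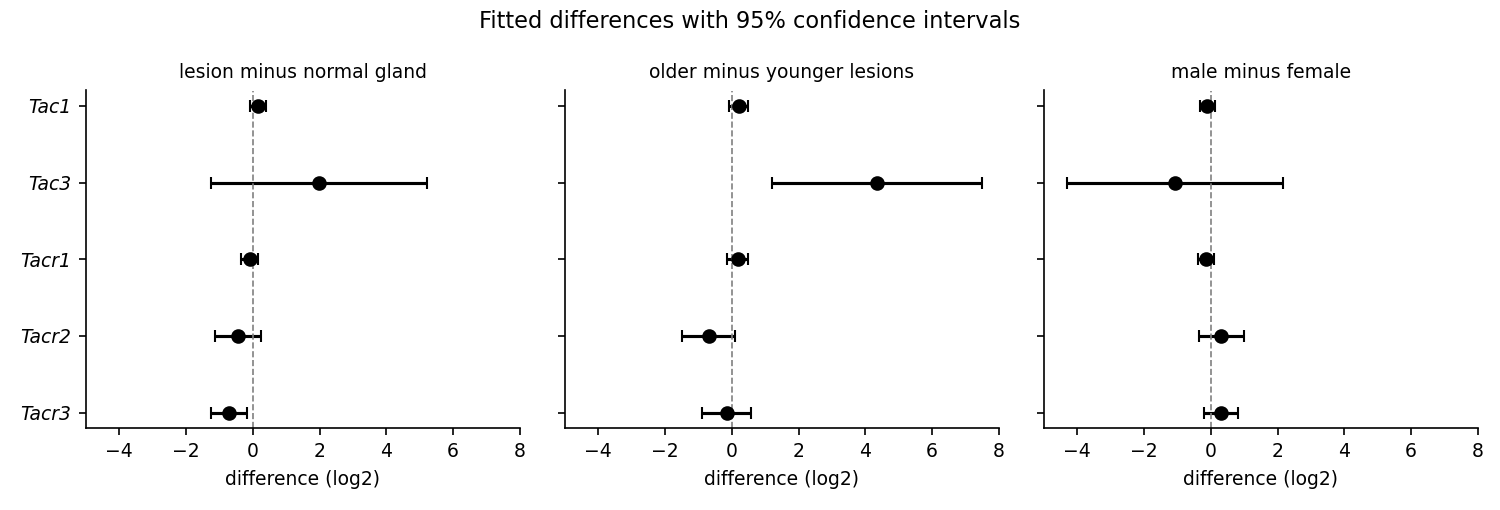
Fitted log2 differences of the 5 genes (horizontal axis) with 95% confidence intervals from limma, for lesion minus normal gland, older minus younger lesions and male minus female. The intervals of Tac3 are the widest in each panel, running from 1.21 to 7.50 between older and younger lesions, and none of the 15 differences was called.

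Across the 10 pairs of members, correlations were examined over the 7 lesions alone. In the 4 pairs with Tac3 the lesions fall into 2 separate clusters, the 2 high ones and the other 5, so no pooled coefficient is given for them. Pooled over both clusters, Tac1 with Tac3 had the smallest p of the 10 pairs. The adjusted exact permutation p was 0.00992 for Pearson r and 0.123 for Spearman rho. This pooled result cannot be told apart from the step of Tac3 between clusters. Over the other 5 lesions alone, r of Tac3 was 0.84 with Tac1, -0.20 with Tacr1, 0.65 with Tacr2 and -0.77 with Tacr3. These 5 arrays are too few for a test, and none was made. Of the other 6 pairs none was called after adjustment over the 10. Among these 6 the smallest p was that of Tac1 with Tacr3 (Pearson r = -0.80, exact permutation p = 0.0290, adjusted p = 0.145, and Spearman rho = -0.82, exact permutation p = 0.0341, adjusted p = 0.171, two-sided, n = 7). Without lesion replicates 1 and 3, which lay farthest from the median of Tac1, r was -0.70 over 5 lesions. Tacr2 with Tacr3 gave r = 0.50 (exact permutation p = 0.250, n = 7) and -0.90 without lesion replicates 1 and 6, so its sign rested on those arrays. Spearman rho for that pair was -0.18 (exact permutation p = 0.713, n = 7).

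The genes most like Tac3 over the 11 arrays, among 1017 genes with an SD of at least 0.5, were Epha8, H1f5, Tlcd4, Sparcl1 and Adora2a. They encode an ephrin receptor kinase, a linker histone, a membrane protein of the TLC domain family, a secreted matrix-associated glycoprotein and an adenosine receptor. Their Pearson r with Tac3 was 0.98, 0.97, 0.95, 0.94 and 0.93, used only to choose them and with no test. The likeness rests on lesion replicates 1 and 3, since without these the coefficients ran from -0.70 to 0.76. Adora2a stood at 10.10 in lesion replicate 1 and 6.64 in lesion replicate 3, against 4.60 to 5.80 in the other lesions and 4.41 to 4.98 in normal glands. Sparcl1 stood at 11.46 and 9.44, against 6.65 to 7.97 in the other lesions and 7.29 to 7.60 in normal glands. Epha8 stood at 6.53 and 5.40 and did not exceed 4.57 on any other array. Each of the 5 was highest in lesion replicate 1 and next in lesion replicate 3.

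**Figure D3:**
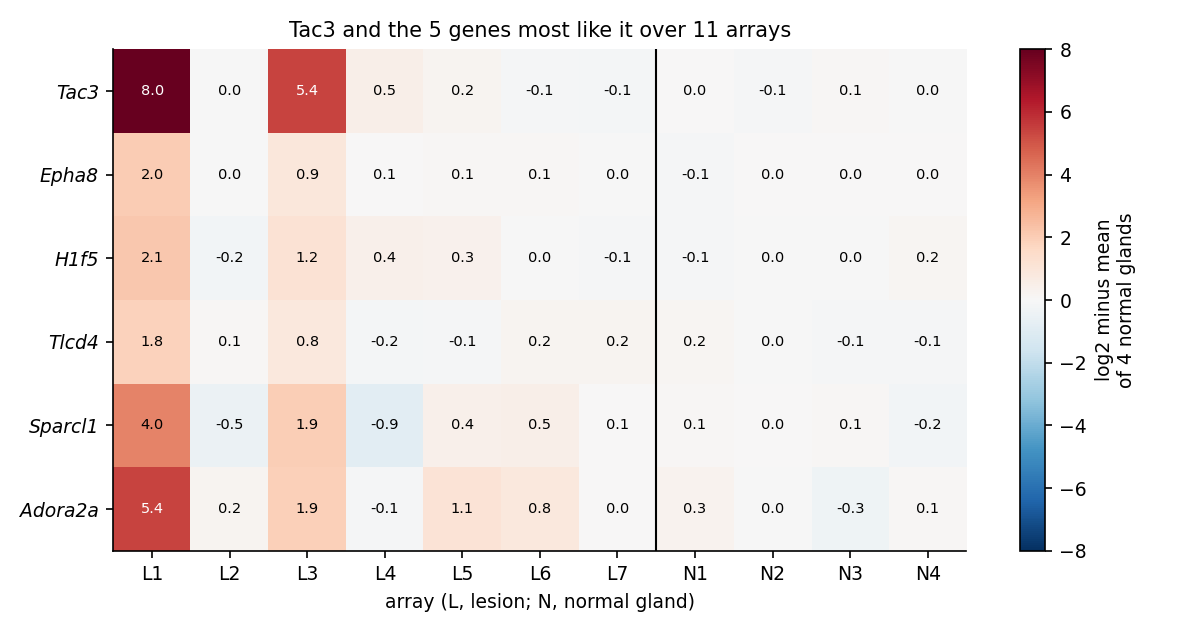
Log2 value of Tac3 and of the 5 genes most like it (rows) minus the mean of the 4 normal glands, on each array (columns; L, lesion; N, normal gland; numbers are replicates). Red cells are above and blue cells below that mean. All 6 rows are highest in lesion replicate 1 and next in lesion replicate 3.

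The genes most like Tacr3 by the same rule were Plag1, a zinc-finger transcription factor, the myelin protein gene Pmp22, the channel-associated subunit gene Cacng5, the PDZ-domain gene Gipc2 and the ubiquitin ligase gene Rnf128. Their r with Tacr3 was 0.94 to 0.96, and it remained 0.80 to 0.91 without lesion replicates 1 and 5, the arrays farthest from the median of Tacr3. Plag1 repeated the sequence of values in outline, with 5.06 to 5.75 in the 3 female lesions, 6.09 to 6.51 in the 4 male lesions and 6.40 to 6.95 in normal glands. For Tacr2 the rule gave Gulp1, an adaptor for engulfment, the growth hormone receptor Ghr, the fatty acid desaturase Fads2, the corticotropin receptor Mc2r and the receptor kinase Met, at r of 0.89 to 0.90. Mc2r is one of the cortical markers. All 5 were lowest in lesion replicate 1, and without that array and normal replicate 4 the coefficients were -0.01 to 0.64.

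**Figure D4:**
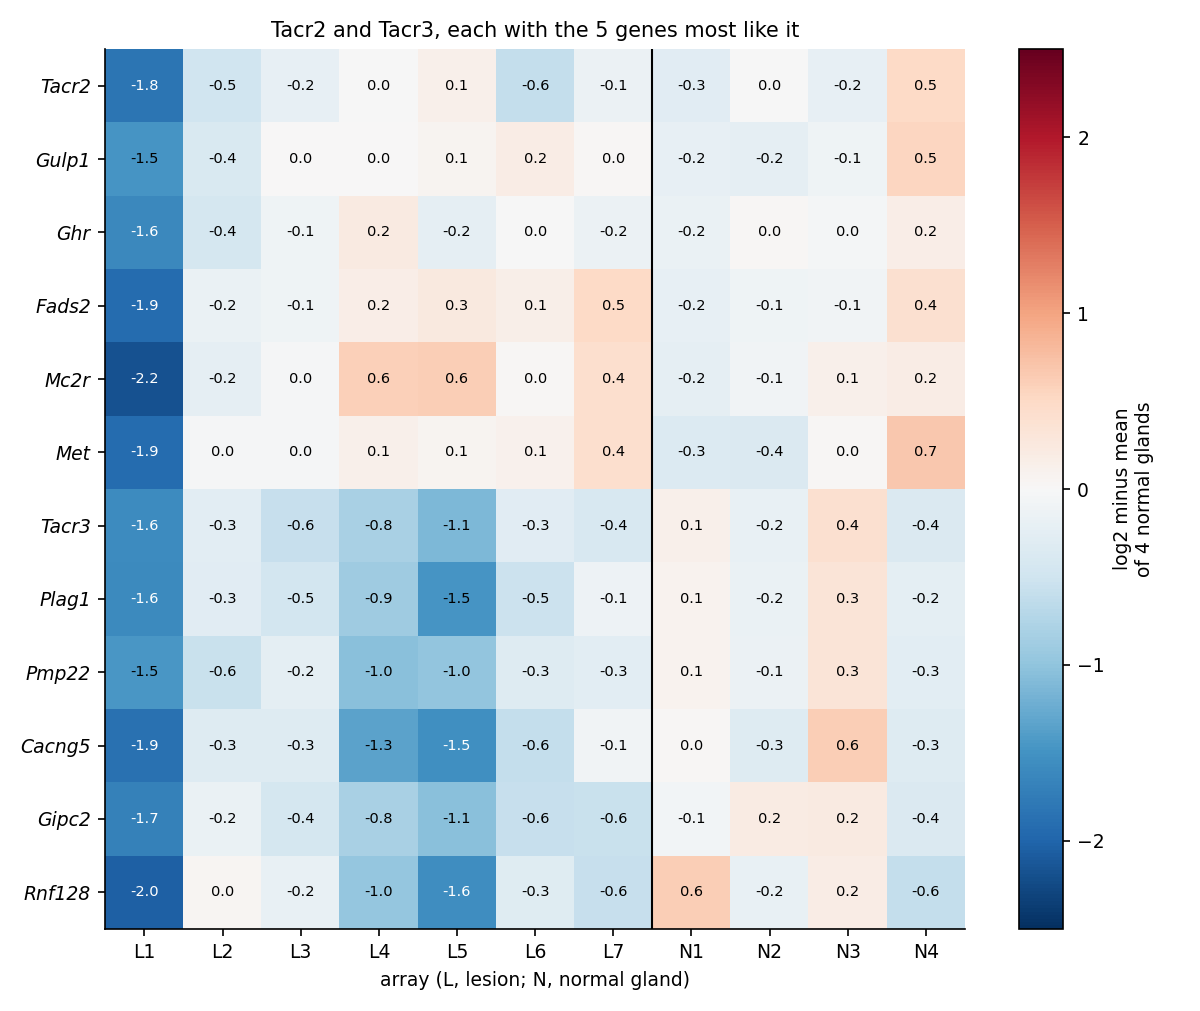
Log2 values of Tacr2 and Tacr3, each followed by the 5 genes most like it (rows), minus the mean of the 4 normal glands, on each array (columns; L, lesion; N, normal gland). Lesion replicate 1 is the lowest column in every row. In the Tacr3 rows the female lesions, replicates 4 and 5, are also below the male lesions, replicates 2, 3, 6 and 7.

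Genes that make, degrade and relay tachykinins were mostly not called. Of 9 measured peptide-processing genes, 0 rose, 0 fell and 9 were not called between lesions and normal glands by limma (median difference -0.11, against 0.01 over all probe sets), and 0 had an unadjusted p under 0.05. The prohormone convertase gene Pcsk2 was lowest in lesion replicate 1 at 5.07, with the other lesions up to 7.70 and normal glands at 6.62 to 7.65 (difference -0.67, 95% CI -1.55 to 0.21, and -0.42 without lesion replicate 1). The convertase Furin differed by 0.33 (95% CI -0.00165 to 0.66) and the carboxypeptidase Cpe by -0.28 (95% CI -0.78 to 0.23).

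Of 6 tachykinin-degrading peptidases, none was called by limma, and 0 had an unadjusted p under 0.05 (median difference -0.02). Mme, neprilysin, which cleaves substance P, differed by -0.53 (95% CI -1.27 to 0.21, adjusted p = 0.785) and was lowest in lesion replicate 1 at 6.11, with a difference of -0.32 without that array. The cytosolic peptidase Prep differed by 0.15 (95% CI -0.06 to 0.37) and the dipeptidyl peptidase Dpp4 by -0.13 (95% CI -0.59 to 0.33), or by -0.0084 without lesion replicate 1.

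Of 22 genes listed for Gq signalling, 1 fell, 0 rose and 21 were not called by limma (median difference -0.02). By the same test 0.065% of all probe sets were called. The list also holds Gna12 and Gna13, which encode subunits of another class of G protein than Gq. An unadjusted p under 0.05 was found for 3 of the 22, or 13.6%, against 7.71% of all probe sets. Without lesion replicate 1 it was found for 4, or 18.2%, against 9.51% of all probe sets. Gna12 (0.46, 95% CI 0.19 to 0.73) and Gna13 (-0.43, 95% CI -0.81 to -0.05) were among these 4, so the share is not one of Gq genes alone. The one that fell was Rgs2, a regulator that restrains Gq-coupled receptors, at 6.75 to 8.26 in lesions and 10.20 to 11.13 in normal glands (difference -3.21, SE 0.27, limma adjusted p = 6.64e-04). Rgs4, of the same family, differed by 0.83 (95% CI -0.37 to 2.03) and the kinase C gene Prkcb by 0.48 (95% CI -0.81 to 1.77), both highest in lesion replicate 1 at 11.86 and 8.22. Without that array the difference of Rgs4 was 0.43 (95% CI -0.21 to 1.07) and that of Prkcb -0.0018 (95% CI -0.36 to 0.36). Rgs2 was still called without it (-3.22, limma adjusted p = 0.00193), again as 1 of 22, where 28 of 29214 probe sets were called.

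Of 18 measured genes of other neuropeptides, none was called by limma, and 1 had an unadjusted p under 0.05 (median difference 0.05). Galanin, Gal, was 9.59 in lesion replicate 1, against 5.70 to 6.96 in the other lesions and 5.02 to 5.92 in normal glands (difference 1.20, 95% CI -0.17 to 2.57, and 0.70 without lesion replicate 1, 95% CI 0.16 to 1.24). Nmu, the neuromedin U gene, differed by 0.78 (95% CI -0.03 to 1.60) and the enkephalin gene Penk by -0.64 (95% CI -1.48 to 0.21). Between older and younger lesions 0 genes of these 4 lists were called by limma, with medians of 0.17, -0.18, 0.05 and 0.04 in the order given, against -0.02 over all probe sets. An unadjusted p under 0.05 was found for 3 of 9, 1 of 6, 7 of 22 and 1 of 18, against 9.6% of all probe sets. Without lesion replicate 1 it was found for 4 of 9, 1 of 6, 3 of 22 and 5 of 18, against 6.5% of all probe sets, and the medians were 0.22, -0.02, -0.06 and 0.14.

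**Figure D5:**
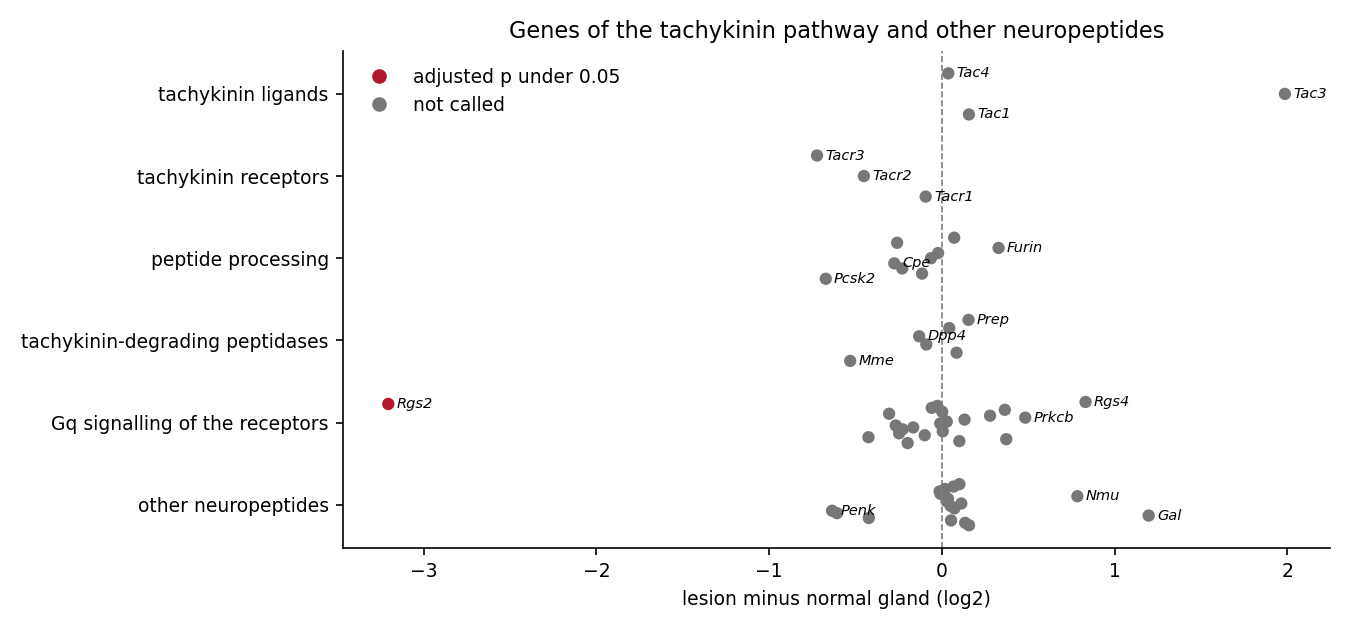
Lesion minus normal gland difference on the log2 scale (horizontal axis) for each measured gene of the tachykinin pathway and of other neuropeptides, by list. Each point is a gene, red where the limma adjusted p is under 0.05 and grey otherwise, with Rgs2 at -3.21 the one called.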

How the data were processed

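The deposited values are on a log2 scale. Per the submitters' processing notes, the authors ran RMA, with Expression Console (1.3.0.187) as the software. For the genome build the sources used here gave nothing, so no coordinates were used. The labels' protocols name whole-transcriptome amplification of the RNA and biotin labelling. The values (2.10 to 13.5) were used as deposited. RMA shrinks differences of dim probe sets, and no detection call was used. Precision is limited by the number of arrays, and no scan batch was known.

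Names came from the platform annotation: of 29214 probe sets, 15310 had 1 symbol, 323 several and 13581 none listed. Differences were fitted with limma 3.58.1 (R 4.3.3) on all 29214 probe sets, two-sided, with Benjamini-Hochberg adjustment and calls at adjusted p under 0.05. Group alone was fitted over all 11 arrays. Age used 4 cells of group by age class, and sex was fitted with group. Group by sex was added after the values were seen. In each fit the spread of a probe set was shared by all groups, so intervals within normal glands also hold the spread of the lesions. The procedure was tested on simulated data.

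The members and gene lists were chosen with earlier results of these data known. Named were the members, Tac4, up to 3 genes per pathway list with the largest lesion-minus-normal difference, 6 tissue markers and the 5 genes most like each member with an SD of at least 0.5. T, NK and B cell markers with values on lesion replicates 1 and 3, and Gna12 and Gna13, were named after their values were seen. Some genes of the lists were not analysed here, and counts are over the measured genes. Marker lists not described in the results (sensory neurons, Schwann cells, endothelium, mast cells and macrophages) had 0 genes called by limma between lesions and normal glands or between older and younger lesions, and 0 or 1 per list at an unadjusted p under 0.05. Alternatives were array weights, median centring, renewed quantile normalization, a robust trended eBayes, a filter on dim probe sets, 1 probe set per gene, covariates, age subsets, a replicate block and every array left out in turn. Python 3.11.15 with matplotlib 3.10.9 made the plots.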

Additional observations from a re-analysis of the deposited data

Results flagged for a closer look

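Samples far from the rest of their group were sought among the named genes in the 7 lesions and the 4 normal glands, 78 gene and group combinations, where chance gives about 1 in 20. That rate is no reference for the 15 genes chosen for their likeness to a member, since lesion replicate 1 weighs in that choice. Nor is it one for the pathway genes named by their lesion-minus-normal difference, in which that array also weighs. Of the 18 found, 13 were lesion replicate 1, and 6 of these 13 were genes chosen for likeness. Rgs4, Prkcb and Gal, also among the 13, were named by their difference. On that array Tacr2 was low at 5.04 (next 6.28), with Star at 11.78, Cyp11a1 at 11.32, Cyp11b1 at 9.72 and, of the genes most like Tacr2, Gulp1 at 6.08, Ghr at 6.38, Fads2 at 9.35, Mc2r at 8.31 and Met at 5.29. High on it were Rgs4 at 11.86 (next 9.69), Prkcb at 8.22 (next 5.14), Gal at 9.59 (next 6.96) and Adora2a at 10.10 (next 6.64). Tac3 itself did not stand out by this measure, because lesion replicate 3 was high as well.

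The others were Tac4 in lesion replicate 6 at 4.03 and in normal replicate 1 at 4.04, Dbh in lesion replicate 4 at 11.59, Star in normal replicate 2 at 12.35 (next 12.32) and Gulp1 in normal replicate 4 at 8.08.

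For 3 named genes every male lesion lay above every female lesion while both male normal glands lay below both female ones. The sex effect in lesions minus that in normal glands was 1.33 for Tacr3 (limma adjusted p = 0.424), 1.52 for Mme (adjusted p = 0.572) and 1.83 for Penk (adjusted p = 0.554), none called by that test. Of all probe sets, 1.69% divided in opposite directions, either way round.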

How the results depend on the processing

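The 5 members had 40 differences over 8 comparisons, and 704 values under alternatives. Of these, 665 kept sign and side of the threshold, 38 changed sign without being called and 1 became called (Tac3 between older and younger lesions without lesion replicate 2). Each member had 1 probe set, so no other could be tried, and the filter on dim probe sets left out Tac1 and Tacr1. The level of that filter was 4.97, the median of the probe set means. Tac3 passed it only through its high values in lesion replicates 1 and 3, since no other array exceeded 4.641. For Tac3 the filter was therefore no check independent of those arrays. Array weights gave -0.0196 for Tac1 and 0.0919 for Tacr3 in the difference of age effects, 0.0423 for Tacr1 in the difference of sex effects, -0.21 for Tacr2 between male and female lesions and 0.0409 for Tacr3 between older and younger lesions. For Tacr1 the difference of sex effects was 0.088 after renewed quantile normalization and 0.02725 after median centring. Leaving out each array gave sign changes in these ranges. For the difference of age effects they were -0.03525 to 0.21 (Tac1), -0.0107 to 0.30 (Tacr1), -0.75 to 0.0915 (Tacr2) and -0.48 to 0.28 (Tacr3). For older against younger normal glands they were -0.14 to 0.0195 (Tac3), -0.12 to 0.19 (Tacr1), -0.64 to 0.064 (Tacr2) and -0.43 to 0.33 (Tacr3), and for Tacr3 in lesions -0.43 to 0.23. For males against females they were -1.85 to 0.48 (Tac3) and -0.0276 to 0.53 (Tacr2), in lesions -2.99 to 0.95 (Tac3), -0.24 to 0.009 (Tacr1) and -0.41 to 0.56 (Tacr2), and in normal glands -0.054 to 0.15 (Tac1). For the difference of sex effects they were -2.83 to 1.11 (Tac3), -0.10 to 0.15 (Tacr1) and -0.90 to 0.073 (Tacr2).

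The count of 19 called probe sets, lesions against normal glands, was 30 with the filter on dim probe sets, 31 with array weights, 0 among arrays of 21 to 24 months, 5 among arrays of 12 to 13 months and 5 to 28 without each array (5 without normal replicate 3, 11 without lesion replicate 7). Between older and younger lesions it was 3, then 1 in the 7 lesions alone and 1 to 39 without each array (39 when lesion replicate 2 was left out, 7 for lesion replicate 3, 6 for lesion replicate 6, 2 for lesion replicate 5 or 7, and 1 for any other array). Between male and female lesions it was 1, then 0 with median centring, 0 with array weights, 2 with 1 probe set per gene and 0 to 58 without each array (58 when lesion replicate 1 was left out, 3 for lesion replicate 5, and 0 for any other array). The other counts of 0 by limma were 0 to 1 without each array, for both differences of effects and both comparisons within normal glands. The causes were not tested.

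The groups share replicate numbers 1 to 4, and the labels state no pairing, so the main fits treated the arrays as unpaired. Deviations of same-numbered arrays correlated at 0.05 to 0.27, and 8 of 8 arrays correlated best with their own number. Replicates 1 and 2 of the groups also share sex and age class. Whether the numbers mark pairs was not tested. With the replicate number as a block 3 probe sets were called between lesions and normal glands, and the male-minus-female difference was 0.11 for Tac1, 2.40 for Tac3 and -0.26 for Tacr3. Without intensities, how far dim probe sets lie above background was not analysed here.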

Other observations

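Besides Tac3, 3 probe sets exceeded the highest normal gland by at least 5 in lesion replicate 1, named here after their values were seen. Gpr139, an orphan G-protein-coupled receptor gene, exceeded it by 5.52, Adora2a by 5.12 and the heparan sulfate sulfotransferase gene Hs3st2 by 5.11. In lesion replicate 3 the next after Tac3 was the killer-cell lectin receptor gene Klrc3, at 3.29. In lesion replicates 4, 6 and 7 the probe set with the largest excess was that of prolactin, Prl, at 3.96, 3.48 and 4.34.

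The Tac4 probe set held the value 4.25 on 5 of the 11 arrays to the last deposited decimal. Such repeats were not particular to Tac4. Cacng5 held 7.127 in lesion replicates 2 and 3 and normal replicates 2 and 4, and Tacr2 held 6.656 in lesion replicate 3 and normal replicate 3.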
